A study of Mus musculus with 4 samples.

Results

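The genes described here are 52 genes of mitosis and the spindle, chosen by name from the pathway, in 2 lymphoma cell lines that differ in their response to JQ1. They are 52 of the 16591 genes in the count table, all 52 were found in it, and all 52 passed the filter on low counts that left 11945 genes for testing. One of them, written Sgol1 here, carries the symbol Sgo1 in the annotation. The data are RNA sequencing counts of 4 libraries, 2 of them from a line sensitive to JQ1 (named JQ1S in the labels) and 2 from a line resistant to it (JQ1R). JQ1 is a small-molecule inhibitor of BET bromodomains, protein modules that recognise acetylated chromatin. Both lines are Eμ-Myc lymphoma cells of the C57BL/6 strain, in which an immunoglobulin heavy-chain enhancer drives Myc in B-lineage cells. Both were used at early passage, in the same medium with serum, L-asparagine and 2-mercaptoethanol, and the labels name no added drug. The labels describe a single line of each kind, so a difference due to resistance and one due to anything else that separates these lines cannot be told apart.

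Total counts ranged from 10346007 to 13048103 per library. All 7 B-lineage markers were measured, with a summed level of 3296 to 3370.3 CPM (counts relative to library size) in the sensitive and 3535 to 3634 CPM in the resistant libraries. Of 5 myeloid markers 3 were in the table, summing to 0.967 to 1.46 CPM in the sensitive and 1.95 to 2.10 CPM in the resistant libraries. The single marker in the table for T cells, for erythroid cells and for NK cells stood at 1.01 CPM or less in every library. None of the 3 fibroblast markers was in the table. Nothing in the labels says that the 2 libraries of a line came from separate cultures, so the p-values below measure only the spread between these libraries, which may be technical.

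In mitosis the duplicated chromosomes are condensed, attached through kinetochores to the microtubules of a spindle, and pulled apart once the spindle checkpoint is satisfied and the anaphase-promoting complex (APC/C) destroys securin and cyclin B. Most genes of this machinery are transcribed together late in the cell cycle. Their promoters are bound by NF-Y at CCAAT boxes and by the MuvB core, with B-MYB and FOXM1 in dividing cells or with E2F4 and a retinoblastoma-like pocket protein as the DREAM repressor in resting cells, at an element called the CHR.

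The promoters of most of these genes share those 2 short elements. RefSeq promoter windows on GRCm38.p6, from 250 bases before to 50 bases after the transcription start, were at hand for 44 of the 52 genes, in 47 windows because some genes have more than 1 start. The CHR core TTTGAA (on the other strand TTCAAA) was found in 34 of the 47 windows, or 72.3%, against 17.9% of all 32851 windows of this length. CCAAT (on the other strand ATTGG) was found in 33 of the 47, or 70.2%, against 37.4% of all. The rarer CHR form TTCGAA, which reads the same on both strands, was in 4 windows (8.51%, against 1.56% of all). CCAAT together with either CHR form was seen in 31 of the 47 windows (66.0%, against 7.52% of all). Of the 48 CHR matches, 34 began within 50 bases of the start site. The E2F-type motifs TTTGGCGC, TTTCCCGC and TTTCGCGC were found in 3, 1 and 0 of the 47 windows, in either orientation. These are 6.38%, 2.13% and 0%, against 0.514%, 1.07% and 0.323% of all windows. A match is a stretch of letters, and binding was not measured here.

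The 120 bases before the start site are shown for 7 of the genes. Plk1 was taken as the single gene called between the lines at an adjusted p below 0.05 in edgeR. The others were taken because a CHR lies before the start site in each of them. CCAAT boxes and both CHR forms, in either orientation, are in capitals. Every sequence runs 5′ to 3′ along the strand of its gene, from RefSeq on GRCm38.p6.
Plk1, chr7:122159315-122159434 on the plus strand: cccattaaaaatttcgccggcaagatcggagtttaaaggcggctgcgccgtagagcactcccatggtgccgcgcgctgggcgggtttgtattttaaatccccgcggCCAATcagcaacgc
Cdc20, chr4:118437344-118437463 on the minus strand: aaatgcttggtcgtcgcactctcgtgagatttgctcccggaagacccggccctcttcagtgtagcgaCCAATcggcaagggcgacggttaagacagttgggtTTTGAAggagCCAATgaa
Kif11, chr19:37376262-37376381 on the plus strand: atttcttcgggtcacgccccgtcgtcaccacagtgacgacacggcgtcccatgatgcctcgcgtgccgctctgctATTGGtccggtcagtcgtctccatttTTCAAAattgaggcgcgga
Ube2c, chr2:164769809-164769928 on the plus strand: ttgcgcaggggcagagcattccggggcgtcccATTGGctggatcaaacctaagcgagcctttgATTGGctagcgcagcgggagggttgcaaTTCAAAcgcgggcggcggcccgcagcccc
Espl1, chr15:102296173-102296292 on the plus strand: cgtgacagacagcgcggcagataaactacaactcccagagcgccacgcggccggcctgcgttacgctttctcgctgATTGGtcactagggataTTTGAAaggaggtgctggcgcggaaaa
Top2a, chr11:99024190-99024309 on the minus strand: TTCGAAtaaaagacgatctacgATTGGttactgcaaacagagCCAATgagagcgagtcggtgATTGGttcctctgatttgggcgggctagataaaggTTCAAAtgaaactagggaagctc
Ncapg, chr5:45669805-45669924 on the plus strand: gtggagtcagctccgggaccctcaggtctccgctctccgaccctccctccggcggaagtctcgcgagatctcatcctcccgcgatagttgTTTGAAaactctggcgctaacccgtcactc
In Plk1 the CCAAT box begins 14 bases before the start, and its TTTGAA, not shown, begins at base 31 of the transcript. In Cdc20 a TTTGAA 18 bases before the start lies between 2 CCAAT boxes, and in the stretches shown for Kif11 and Ube2c both elements are in the opposite orientation. In the stretch shown for Top2a there are 3 CCAAT boxes and 2 CHR forms, and in that of Ncapg a TTTGAA alone. The 33 genes with a CHR form in a window had log2 changes between the lines of -0.25 to 0.14 (median 0.012), and the 11 with a window and no such match had -0.18 to 0.18 (median -0.017).

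The comparison of resistant with sensitive cells asks whether the lines differ in the expression of the mitotic machinery. Most of the 52 genes stood at close levels in both lines. Plk1, the kinase that drives mitotic entry and spindle formation, was the single gene of the 52 that passed the test, and it was lower in resistant cells. Of the 52 genes 0 were called higher and 1 lower at an adjusted p below 0.05 by edgeR's quasi-likelihood test, which is 1.92% of them beside a background of 3.73% of the 11945 tested genes (2.20% higher and 1.52% lower). At an unadjusted p below 0.05 there were 6 of the 52, against 16.9% of all tested genes. The log2 changes ran from -0.25 to 0.18 with a median of 0.0084, beside 0.0033 for all tested genes. Of the 52 changes 51 lay within 0.2 of 0 in either direction (98.1%, against 73.8% of all tested genes). The share was 90.8% of the 5754 genes whose mean log2 CPM is 5 or more, as it is for 51 of the 52. It was 94.0% of the 184 other genes of mitosis and the cell cycle described below.

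Like the p-values, the intervals bound these differences only against the spread between these libraries, which may be technical. The 95% interval of the difference lay inside a 1.2-fold change in either direction for 43 of the 52 genes, and inside a 1.5-fold change for all 52. The 9 whose interval passed the 1.2-fold bound were Plk1, Aurka, Kif20a, Mybl2, Ndc80, Spc24, Spc25, Nusap1 and Pttg1. In 25 of the 52 genes the 2 libraries of one line lay wholly above those of the other, 14 with the resistant pair higher and 11 with it lower, which is 48.1% beside 47.3% of all tested genes.

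**Figure D1:**
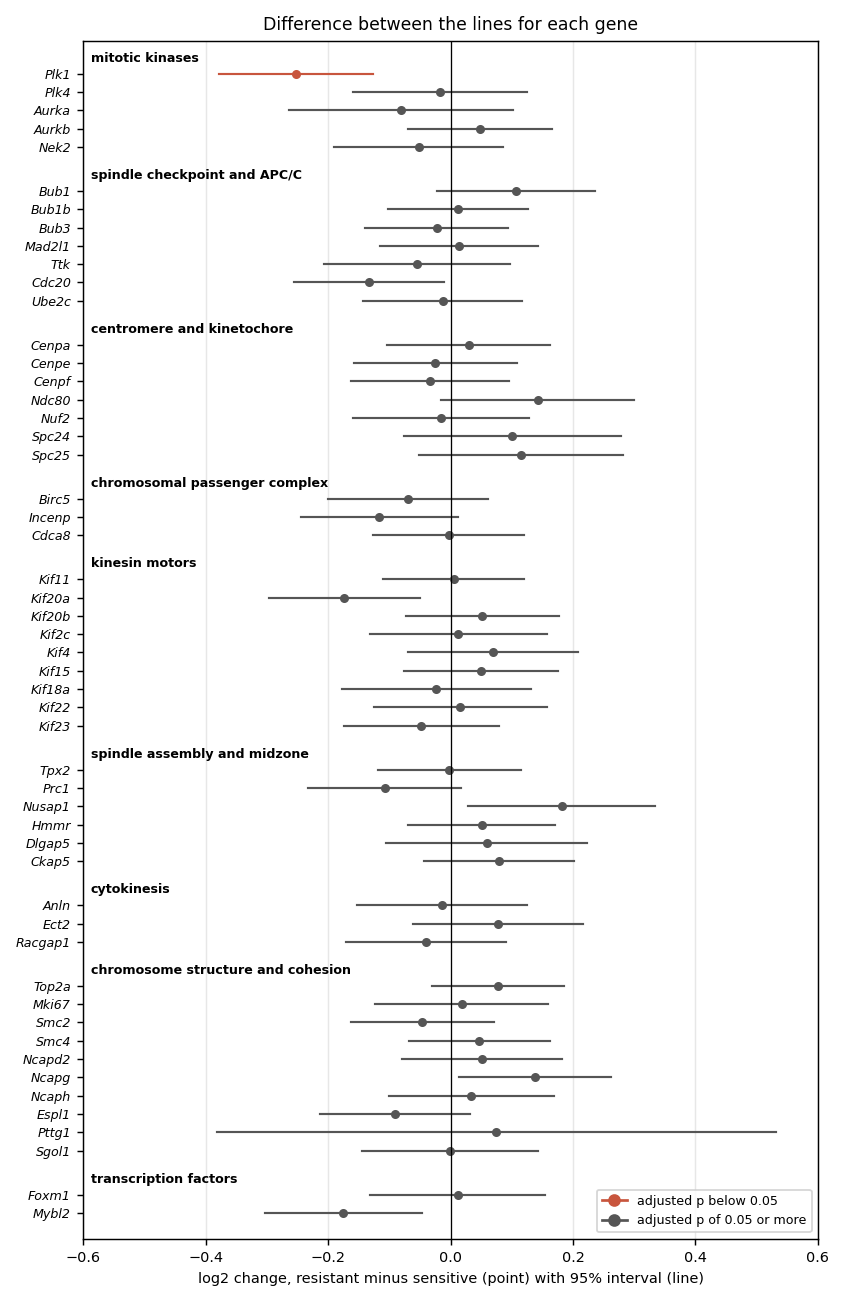
Log2 change of each of the 52 genes between the lines (horizontal axis, resistant minus sensitive) with its 95% interval from edgeR, grouped by role. Plk1, in red, is the gene with an adjusted p below 0.05, and the other points lie between -0.18 and 0.18.

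Among the mitotic kinases Plk1 stood at 175 and 183 CPM in the sensitive libraries and 152 and 148 CPM in the resistant libraries. Both resistant libraries were thus below both sensitive libraries, by more than the gap between the libraries of either line. The level of Plk1 fell from 179 ± 6.18 to 150.2 ± 2.63 CPM (mean ± SD, n = 2 libraries per line), a level 1.19-fold lower in resistant cells with a log2 change of -0.25 ± 0.059 (SE, edgeR adjusted p = 0.0231). Plk1 lies on chromosome 7 at 122159439 to 122169873 on GRCm38, and 7.09% of its exonic bases are shared with Gm44985 on the other strand. The strand setting of the counting is not given, so reads of such a pair of genes cannot be told apart. Other-strand overlaps not given below with their gene are those of Nek2 (6.60%), Cdca8 (4.48%), Cdc20 (2.84%), Kif22 (1.96%) and Kif18a (0.112%). Plk1 kept its direction but lost its call without resistant replicate 1 (adjusted p = 0.188), without resistant replicate 2 (0.368) and with DESeq2 (0.0733), and over all alternatives the adjusted p ran from 2.39e-05 to 0.368.

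The other mitotic kinases did not pass the test. Aurka, the kinase of the spindle poles, was at 82.3 and 94.8 CPM in the sensitive libraries and 91.0 and 76.2 CPM in the resistant libraries, and the lines overlapped (-0.081 ± 0.086, 95% interval -0.26 to 0.10). Its libraries differed within each line by more than the lines differed from each other. Aurkb, the kinase of the chromosomal passenger complex, was at 199 and 197 CPM against 206 and 204 CPM, a log2 change of 0.048 (95% interval -0.070 to 0.17). The centriole kinase Plk4 and the centrosome kinase Nek2 had changes of -0.017 and -0.052.

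Genes of the spindle checkpoint and of its target, the APC/C, differed little between the lines, with log2 changes of -0.13 to 0.11 over 7 genes. Cdc20, the activator of the APC/C that the checkpoint holds back, was at 192 and 195 CPM in the sensitive libraries and 181 and 172 CPM in the resistant libraries. The resistant pair was lower, by -0.13 ± 0.058 on the log2 scale (adjusted p = 0.251 in edgeR). Bub1, a checkpoint kinase, was at 125 and 132 CPM against 138 and 138 CPM (sensitive against resistant, replicate 1 before replicate 2), with the resistant pair higher (0.11, adjusted p = 0.398 in edgeR). Bub1b, which encodes the checkpoint protein BUBR1, had 365 and 371 CPM against 373 and 369 CPM, and the lines overlapped. Mad2l1, which encodes the checkpoint protein MAD2, had 112 and 108 CPM against 111 and 111 CPM. For Mad2l1 the 95% interval of the log2 change was -0.12 to 0.14. Bub3 (-0.023), the checkpoint kinase Ttk (-0.055) and Ube2c (-0.013), the ubiquitin-conjugating enzyme that starts chains for the APC/C, complete this group, and 22.8% of the exonic bases of Ube2c are shared with Tnnc2 on the other strand.

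Of 7 centromere and kinetochore genes 0 passed the test. The NDC80 complex, which binds spindle microtubules, has 4 subunits, of which Ndc80, Spc24 and Spc25 had no overlap between the lines, as had 47.3% of all tested genes, and did not pass the test. Ndc80 itself was at 46.7 and 46.4 CPM in the sensitive libraries and 50.2 and 52.5 CPM in the resistant libraries (log2 change 0.14 ± 0.074, adjusted p = 0.355 in edgeR). Spc25 was at 40.6 and 38.9 CPM against 42.8 and 43.3 CPM (0.11, adjusted p = 0.495 in edgeR), and Spc24 had a change of 0.10. The fourth subunit, Nuf2, overlapped between the lines, with a change of -0.016. Cenpa, the histone H3 variant that marks the centromere, had 182 and 168 CPM against 185 and 173 CPM, and the lines overlapped (95% interval -0.10 to 0.16). The large kinetochore proteins Cenpe and Cenpf had changes of -0.025 and -0.034.

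The 3 genes of the chromosomal passenger complex beside Aurkb had negative log2 changes, and 0 of them passed the test. Incenp, the scaffold of the complex, was at 310.4 and 340.4 CPM in the sensitive libraries and 307 and 293 CPM in the resistant libraries (-0.12 ± 0.060, adjusted p = 0.350 in edgeR). Without sensitive replicate 1 Incenp was called lower (-0.18, adjusted p = 0.00392 in edgeR), where the spread comes from the resistant pair alone. Birc5, which encodes survivin, was at 148 and 152 CPM against 137 and 148 CPM (95% interval -0.20 to 0.062), with overlap between the lines, and Cdca8, which encodes borealin, had a change of -0.0032.

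Kinesin motors move along or take apart microtubules in the spindle, and 0 of their 9 genes passed the test. Kif20a, a motor of the central spindle, had the lowest log2 change of the 9, at 192 and 201 CPM in the sensitive libraries and 178 and 171 CPM in the resistant libraries (-0.17 ± 0.058, adjusted p = 0.126 in edgeR). Both resistant libraries were below both sensitive libraries, and without sensitive replicate 1 Kif20a was called lower (adjusted p = 0.00381 in edgeR). Of the exonic bases of Kif20a 29.3% are shared with Cdc23, an APC/C subunit on the other strand, whose own log2 change was 0.062. Kif11, which slides the spindle poles apart, had 350.4 and 353 CPM against 357 and 349 CPM, with a 95% interval of -0.11 to 0.12. Kif4, a chromosome-arm motor, was at 76.9 and 78.5 CPM against 80.5 and 82.4 CPM, a change of 0.069, and 15.1% of its exonic bases are shared with Pdzd11 on the other strand. The other 6 kinesins (Kif15, Kif18a, Kif20b, Kif22, Kif23 and Kif2c) had changes of -0.048 to 0.052.

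Of the 6 genes of spindle assembly and of the midzone, Nusap1, a microtubule-bundling protein, had the highest log2 change of all 52 genes. Of the exonic bases of Nusap1 4.24% are shared with Oip5 on the other strand, whose own log2 change was 0.14. Nusap1 was at 121 and 142 CPM in the sensitive libraries and 153 and 145 CPM in the resistant libraries (0.18 ± 0.072, adjusted p = 0.2 in edgeR). The sensitive libraries lay farther from each other than sensitive replicate 2 lay from either resistant library, and the change was 0.071 without sensitive replicate 1 and 0.29, called (adjusted p = 5.88e-05 in edgeR), without sensitive replicate 2. Prc1, which crosslinks the microtubules of the midzone, was at 155 and 161 CPM against 145 and 149 CPM, with the resistant pair lower (-0.11, adjusted p = 0.380 in edgeR), and 11.1% of its exonic bases are shared with Rccd1 on the other strand. Stretches over 30.1% of the longest Prc1 transcript are nearly identical (at least 97% over at least 75 bases) to transcripts of Rccd1, Echs1, Hspa4l or Zfp940, so its count is uncertain. Tpx2, the activator of Aurora A on the spindle, had 227 and 228 CPM against 228 and 226 CPM, the narrowest range of the 52 relative to its mean. Ckap5 (0.079), Hmmr (0.051) and Dlgap5 (0.059), all microtubule-associated proteins, did not pass the test.

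Of 3 cytokinesis genes 0 passed the test. Ect2, the exchange factor that activates RhoA at the division plane, was at 84.3 and 80.0 CPM against 87.4 and 86.2 CPM (0.078, 95% interval -0.061 to 0.22), with the resistant pair higher. Racgap1, its binding partner, was at 231 and 251 CPM against 242 and 226 CPM (-0.040, 95% interval -0.17 to 0.091), with overlap, and 16.0% of its longest transcript is nearly identical to AC148020.1. The contractile-ring scaffold Anln had a change of -0.014.

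Chromosome structure and cohesion genes numbered 10, of which 0 passed the test. Top2a, the topoisomerase that untangles sister chromatids, was at 1051 and 1079 CPM in the sensitive libraries and 1122 and 1126 CPM in the resistant libraries. The resistant pair was higher, by a log2 change of 0.077 (95% interval -0.030 to 0.18). Mki67, whose product Ki-67 coats mitotic chromosomes and is a common marker of dividing cells, had 1105 and 1310.5 CPM against 1209 and 1236 CPM. The 2 sensitive libraries were the lowest and the highest of the 4 for Mki67, so its change of 0.018 became -0.10 without sensitive replicate 1 and 0.14, called (adjusted p = 0.0163 in edgeR), without sensitive replicate 2.

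Condensin genes, whose products compact the chromosomes, were Smc2 (-0.046), Smc4 (0.046), Ncapd2 (0.051), Ncaph (0.034) and Ncapg. Ncapg was at 156 and 149 CPM in the sensitive libraries and 167 and 169 CPM in the resistant libraries, with the resistant pair higher (0.14 ± 0.059, adjusted p = 0.240 in edgeR), and 13.4% of its exonic bases are shared with Lcorl on the other strand. Ncapd2 was called higher without sensitive replicate 2 (0.14), and Ncapg without sensitive replicate 1 (0.17). Sgol1, the protector of centromeric cohesion, had 66.7 and 68.5 CPM against 67.3 and 67.8 CPM (95% interval -0.14 to 0.14). Espl1, which encodes separase, the protease that cuts cohesin at anaphase, was at 187 and 189 CPM against 181 and 172 CPM, with the resistant pair lower (-0.091, adjusted p = 0.455 in edgeR). Pttg1, which encodes securin, the inhibitor of separase, was the lowest of the 52 at 4.39 and 3.69 CPM in the sensitive libraries and 3.75 and 4.80 CPM in the resistant libraries, or 57 and 38 against 41 and 57 counts, and its 95% interval of -0.38 to 0.53 was the widest.

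Both transcription factors of the group belong to the late cell-cycle programme. Mybl2, which encodes B-MYB, was at 179 and 194 CPM in the sensitive libraries and 164 and 166 CPM in the resistant libraries. The resistant pair was lower (-0.18 ± 0.060, adjusted p = 0.136 in edgeR), and Mybl2 was called lower without sensitive replicate 1 (adjusted p = 8.63e-04 in edgeR). A stretch of 28.3% of the longest Mybl2 transcript is nearly identical to annotated transcripts of Gm3320 or AC151978.1, so its count is uncertain. Foxm1 had 117 and 131 CPM against 128 and 122 CPM, with overlap between the lines and a 95% interval of -0.13 to 0.15.

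**Figure D2:**
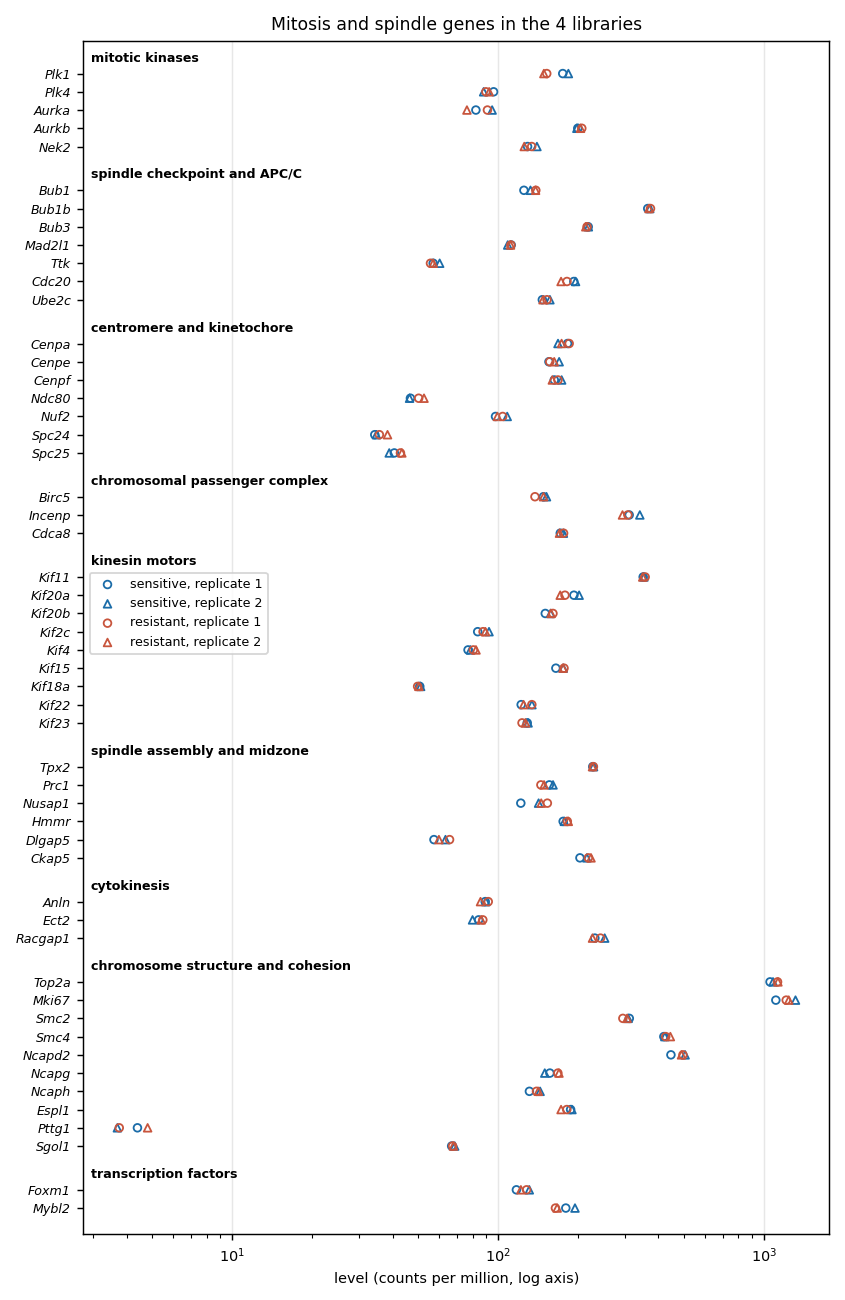
Level of each of the 52 genes in each library (horizontal log axis, CPM scaled with TMM factors; blue, sensitive; red, resistant; circles, replicate 1; triangles, replicate 2), grouped by role. The points of a gene nearly coincide for most genes, and Pttg1 is the lowest at 3.69 to 4.80 CPM. The pairs of the lines do not overlap in 25 of the 52 genes, Plk1 among them (48.1%, against 47.3% of all tested genes).

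Levels of different genes can be compared only per length of their exons. The length used merges all annotated exons of a gene and can exceed that of the transcript expressed, so the order is approximate. On the scale of CPM per kilobase of exonic sequence, averaged over the 4 libraries, Top2a (121) and Mki67 (121) led, followed by Cdc20 (99.1), Bub1b (86.4) and Smc4 (82.1). Top2a and Mki67 did not differ beyond the spread of Mki67, whose libraries ran from 110 to 130.3 on this scale. The lowest were Ndc80 (7.54), Kif18a (5.13) and Pttg1 (2.08). The rank of Plk1 among the 52 was 5 by its mean in the sensitive line and 9 in the resistant line. In the sensitive libraries Plk1 was at 79.4 and 83.4 per kilobase, overlapping with Smc4 (80.4 and 81.2) and Ncapd2 (71.1 and 80.4). In the resistant libraries it was at 69.1 and 67.4, below both values of Smc4 (81.8 and 85.1) and Ncapd2 (78.9 and 77.9) and overlapping with Incenp (70.9 and 67.7).

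Together the 52 genes took 1.00% (95% exact binomial interval 0.997 to 1.01) and 1.06% (1.05 to 1.06) of all counts in the sensitive libraries and 1.04% (1.04 to 1.05) and 1.04% (1.03 to 1.05) in the resistant libraries, where the intervals cover counting error only. Both resistant libraries lay between the sensitive ones, and an exact two-sided permutation test over the 4 libraries gave p = 1.0, in a design whose smallest possible p is 0.333. In bulk RNA, a difference in the share of dividing cells and a difference in RNA of these genes per cell cannot be told apart.

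The sensitive libraries also differed from each other in these genes. In 42 of the 52 genes sensitive replicate 2 was above sensitive replicate 1 (80.8%, against 50.3% of all tested genes), with a median log2 difference of 0.038, beside 0.0084 between the lines. In the resistant pair 23 of the 52 were above in replicate 2, with a median of -0.012. By role, sensitive replicate 2 was the higher of the pair in 9 of 9 kinesins, 6 of 6 genes of spindle assembly and the midzone, 6 of 7 of the checkpoint and APC/C, 3 of 3 of the passenger complex and 2 of 2 transcription factors. It was the higher in 7 of 10 genes of chromosome structure, 3 of 5 kinases, 4 of 7 kinetochore genes and 2 of 3 cytokinesis genes. The number of genes called also moved with the library left out. Without sensitive replicate 1 there were 5 (Plk1, Incenp, Kif20a, Mybl2 and Ncapg, beside 11.3% of all genes), and without sensitive replicate 2 there were 4 (Plk1, Nusap1, Mki67 and Ncapd2, beside 9.68%). Without resistant replicate 1 there were 0 (beside 2.45% of all genes) and without resistant replicate 2 also 0 (beside 2.21%). DESeq2 called 0 as well (beside 1.74%), whereas limma-voom (beside 3.69%) and edgeR with a replicate block (beside 4.98%) each called 1, Plk1.

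**Figure D3:**
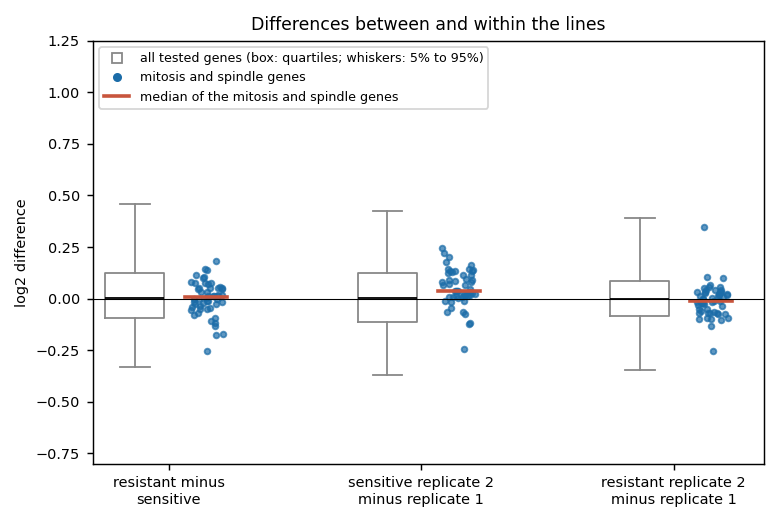
Log2 differences between the lines and between the libraries of each line (vertical axis), with the 52 genes as points, their median as a red line and all 11945 tested genes as boxes (quartiles, whiskers at 5% and 95%). The median of the 52 is 0.0084 between the lines and 0.038 between the sensitive libraries.

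Another 186 genes of mitosis and the cell cycle, in 9 lists that exclude the 52, give the setting. Of these 184 were tested, and 1 was called higher and 3 lower (2.17%, beside 3.73% of all tested genes), with a median log2 change of 0.0054. None of the 4 was called by DESeq2, where the adjusted p-values were 0.0601 to 0.182. The lists of centromere and kinetochore (33 genes), condensin and cohesin (17), centrosome (23), spindle (22), cytokinesis (12) and S-phase genes (20) had 0 called members in edgeR, DESeq2 and limma-voom, with 5, 2, 2, 3, 2 and 3 of them below 0.05 before adjustment in edgeR. The smallest p in each of these lists belonged to Hjurp, the chaperone of CENP-A (0.16), the cohesin subunit Stag2 (0.17), the centriole gene Stil (0.20), the importin Kpna2 (-0.18), the membrane-scission ATPase Vps4a (0.20) and cyclin E1, Ccne1 (-0.25), with adjusted p-values of 0.0773 to 0.182 in edgeR. These 6 lists, in the same order, had 3, 2, 1, 3, 1 and 2 called genes without sensitive replicate 1 (beside 11.3% of all genes) and 1, 1, 1, 4, 1 and 3 without sensitive replicate 2 (beside 9.68%), but 0 when either resistant library was left out. Kpna2 and Hjurp were called when either sensitive library was left out, Stag2 without sensitive replicate 1, and Stil and Ccne1 without sensitive replicate 2. Cdk1, the kinase that starts mitosis, had 186 and 177 CPM against 185 and 176 CPM, and its cyclins Ccnb1 (-0.050), Ccnb2 (-0.048) and Ccna2 (0.035) did not pass the test. These 4 were chosen for their role after their values were seen.

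Of the 21 tested genes of the MuvB, DREAM, E2F and NF-Y factors, 1 was called higher and 1 lower. Over all tested genes 2.20% were called higher and 1.52% lower. The log2 change was positive in 12 of the 21 and negative in 9. E2f4, the E2F of the DREAM repressor, was at 201 and 219 CPM in the sensitive libraries and 180.0 and 170.5 CPM in the resistant libraries. Both resistant libraries were lower (-0.26 ± 0.062 on the log2 scale, adjusted p = 0.0241 in edgeR), and the call was lost when resistant replicate 1 (0.0915) or resistant replicate 2 (0.412) was left out. Myb, the relative of Mybl2 known from blood progenitors, was at 346 and 394 CPM in the sensitive libraries and 435 and 438 CPM in the resistant libraries. Its level was higher in both resistant libraries (0.24 ± 0.063, adjusted p = 0.0464 in edgeR), and the call was lost without resistant replicate 1 (0.240) and without resistant replicate 2 (0.312). Without sensitive replicate 1 the change of Myb was 0.15, and without sensitive replicate 2 it was 0.33. The smallest adjusted p over the alternatives was 2.39e-07 for E2f4 and 3.30e-10 for Myb.

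The other 2 called genes were Ube2s and Plk3, both lower in resistant cells. Ube2s, the enzyme that extends ubiquitin chains for the APC/C, was at 467 and 481 CPM in the sensitive libraries and 421 and 394 CPM in the resistant libraries (-0.22 ± 0.056, adjusted p = 0.0424 in edgeR), the single call among 20 genes of the APC/C and its regulators. That call was lost with library size alone (adjusted p = 0.0554), upper-quartile factors (0.0532), the replicate block (0.0538) and without either resistant library (0.167 and 0.661), and the smallest value over the alternatives was 1.95e-05. Plk3, a relative of Plk1 that responds to stress, was weakly expressed, at 7.01 and 8.16 CPM in the sensitive libraries and 4.94 and 2.95 CPM in the resistant libraries, or 91 and 84 against 54 and 35 counts. Its log2 change was -0.95 ± 0.22 (adjusted p = 0.0198 in edgeR), the single call among 16 genes of mitotic entry and exit. Without resistant replicate 2 the change of Plk3 was -0.61 (adjusted p = 0.281 in edgeR, where the alternatives began at 5.19e-05).

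**Figure D4:**
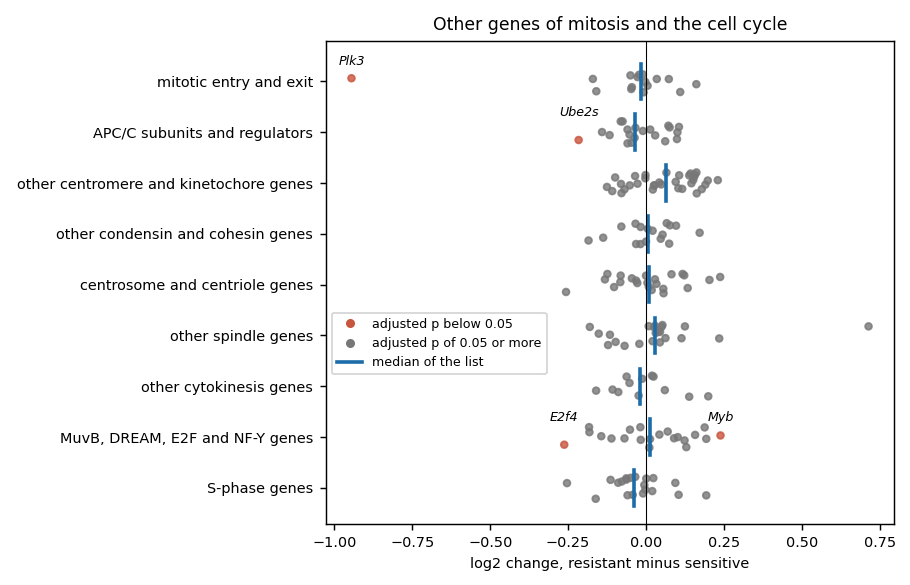
Log2 change between the lines (horizontal axis, resistant minus sensitive) of the 184 tested genes in 9 other lists of mitosis and the cell cycle, with the median of each list as a blue line. The 4 genes with an adjusted p below 0.05, Plk3, Ube2s, E2f4 and Myb, are in red and named.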

How the data were processed

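RNA sequencing counts of 4 libraries were analysed, 2 per line, grouped by their titles. The authors' deposited counts are whole numbers of reads per Ensembl gene in a single table of 16591 genes, with 0 columns left unused. Per the submitters' processing notes, the tools included HTSeq, TopHat, Bowtie2, cutadapt 1.7, FastQC and limma, with mm10 and GRCm38 as builds. What each tool did, the strand setting and the annotation used are not given in the sources. Symbols, positions and exonic lengths came from GENCODE M21 (GRCm38), which matched 16407 identifiers.

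Counts were fitted over the whole table with edgeR 4.0.16 in R 4.3.3 (glmQLFit, glmQLFTest, TMM factors, group alone, filterByExpr keeping genes by its count limit of 10 and total limit of 15), with Benjamini-Hochberg adjustment over 11945 genes. CPM use TMM-scaled library sizes, and 1 count corresponds to 0.0771 to 0.0972 CPM. The summed CPM of the cell-type markers use total counts instead, without TMM factors. Standard errors and 95% intervals derive from the quasi-likelihood F statistic. Nearly identical transcripts were sought with blastn 2.17.0. Promoter windows came from RefSeq (GRCm38.p6). The fit was tested on simulated data.

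The genes, lists and naming rule were chosen with earlier results of these data known. Values of all libraries are given for called genes, the 2 smallest p-values of each role and 16 genes set by name, and for each other list its called genes or its smallest p. Alternatives were 3 other scalings, DESeq2 1.42.0, limma-voom (limma 3.58.1), no filter, a replicate block and leaving out each library.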

Additional observations from a re-analysis of the deposited data

How the results depend on the processing

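Of the 52 mitosis and spindle genes 1 was called under all 3 other scalings, limma-voom, no filter and the replicate block, Plk1 each time and in the same direction. DESeq2 called 0 of them, and 208 genes in all instead of 445. Leaving out each library in turn gave 0 to 5 called mitosis genes (0 to 3 higher and 0 to 4 lower) and 270 to 1381 called genes in all, where a fit with 3 libraries takes its spread from the remaining pair. The median log2 change of the 52 was -0.024 to 0.021 and the log2 ratio of their share of counts -0.023 to 0.055 over the left-out libraries. With library size only and with upper-quartile factors 3 of the 52 changed sign, and 8 to 13 did when a library was left out, none of them called in either fit. The replicate numbers are shared by title alone, and deviations of same-numbered libraries from their group means had a correlation of -0.020 across genes. The replicate block called 595 genes and, of those reported, changed only the call of Ube2s (adjusted p = 0.0538, edgeR). The 38 to 57 counts of Pttg1 left its difference the least certain of the 52. The counts of called genes in the other lists also moved: DESeq2 called 0 in all 9, and the replicate block called 0 genes of the APC/C list. When either sensitive library was left out, more genes were called in every other list except the APC/C list, as over all tested genes. No list gained calls when a resistant library was left out, where fewer of all tested genes were called. In these fits 1 line has a single library.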
